A study of Saccharomyces cerevisiae with 8 samples.

Results

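Rap1 peaks that lay in the outer 50 kb of a chromosome were described in Saccharomyces cerevisiae cultures of 16 h and 14 d. Every peak of 4 deposited peak lists whose midpoint fell within 50 kb of either end of a nuclear chromosome, in coordinates of release 64 of the reference genome (R64), was taken. This gave 210 of 1223 nuclear peaks, at 32 ends of 16 chromosomes. The 210 peaks merged into 98 of 614 regions where peaks of different lists overlapped by at least 1 bp. The choice used position only, and no enrichment value entered it.

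Rap1 is a sequence-specific DNA-binding protein of budding yeast that coats the telomeric repeats at chromosome ends, where it recruits the Rif proteins, which limit telomere length, and the Sir proteins, which silence nearby genes. It is also an activator of many ribosomal protein and glycolytic genes. Next to the telomeric repeats, the ends carry an X element, and some ends also carry 1 or more Y′ elements, long repeats that encode the helicase-like YRF1 genes. Short internal stretches of telomeric repeat can lie at the junction of X and Y′ elements. The positions of the elements themselves were not used here, and regions are placed by distance and by neighbouring genes.

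The strain was JDY86, the parent of a histone mutant library, a MATa strain with can1::MFA1pr-HIS3, the histone alleles hht2-hhf2::[HHTS-HHFS]-URA3 and hht1-hhf1::NatMX4, and the markers met15Δ0, ura3Δ0, trp1Δ63, K2Δ0 (as the study's methods print it), leu2Δ0 and his3Δ200. All cultures carried this genotype, so H3 and H4 came from a single engineered locus in both groups. In the study's methods [HHTS-HHFS] stands for the mutated histone of the library, and the sample titles name no histone mutation. They were grown in YPD at 30 °C for 16 h or 14 d, with 2 biological repeats per time. Chromatin was taken from the bulk culture after formaldehyde cross-linking, so each list averages over all cells of its culture. Rap1 was immunoprecipitated with a polyclonal antibody, and 4 input libraries of chromatin without antibody served the authors for peak calling only. The question was whether Rap1 at chromosome ends differs between young and chronologically aged cultures.

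The lists differed far more between repeats than between times. Nuclear peaks numbered 84 and 480 in 16 h repeats 1 and 2, and 95 and 564 in 14 d repeats 1 and 2. The genome background pileup, the expected number of fragments over a position as a relative measure of depth, was 0.414 and 8.87 at 16 h and 1.71 and 11.7 at 14 d. Depth therefore rose 4.12 times from 16 h to 14 d in repeat 1 and 1.32 times in repeat 2, and a peak missing from a repeat 1 list can be a peak below its detection limit. Fold enrichment, as the authors' peak caller gave it, is the summit pileup over the local background with 1 added to both, so that it is held down where the background is below 1 fragment. Fold was therefore also ranked within each list, as a percentile on which 100 is the strongest peak.

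The ends carried many of the strongest Rap1 peaks of each list. Outer peaks made up 33.3% (28 of 84) and 15.4% (74 of 480) of the nuclear peaks at 16 h, and 18.9% (18 of 95) and 16.0% (90 of 564) at 14 d, while the outer windows held 13.3% of the assembled length. Of the 10 peaks with the highest fold, 10, 7, 9 and 10 were outer peaks in 16 h repeat 1, 16 h repeat 2, 14 d repeat 1 and 14 d repeat 2. The median percentile of fold was 83.9, 55.6, 89.5 and 53.5 in outer peaks and 39.0, 49.0, 45.3 and 49.6 in the peaks more than 50 kb from an end, in the same order of lists. Outer peaks ranked higher in 4 of 4 libraries, by 24.9 ± 22.7 percentile points (SD, n = 4), and the exact sign-flip permutation test gave p = 0.13, the smallest that 4 libraries allow. The excess was 44.9 and 44.2 points in the shallow repeat 1 and 6.61 and 3.90 points in the deep repeat 2. Without the peaks of the terminal 1 kb it was 45.5 and 37.9 points in repeat 1 and −4.27 and −6.52 points in repeat 2 (mean 18.2, exact sign-flip permutation p = 0.5).

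Outer summits were less often in coding sequence than inner summits in all 4 libraries. The share was 3.57%, 4.05%, 11.1% and 8.89% of outer summits against 8.93%, 13.1%, 24.7% and 12.0% of inner summits, in the same order, a mean difference of −7.76 ± 4.56 percentage points (SD, n = 4, two-sided exact sign-flip permutation test, p = 0.13). The peaks of the terminal 1 kb had no coding summit, and without them the outer share was 7.69%, 5.77%, 15.4% and 12.5%, which in 14 d repeat 2 was no longer below the inner share (mean difference −4.33 points, exact sign-flip permutation p = 0.25). Peak width gave no common direction. The outer median differed from the inner one by 62, −17.5, 85 and −3 bp (exact sign-flip permutation test, p = 0.5).

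**Figure D1:**
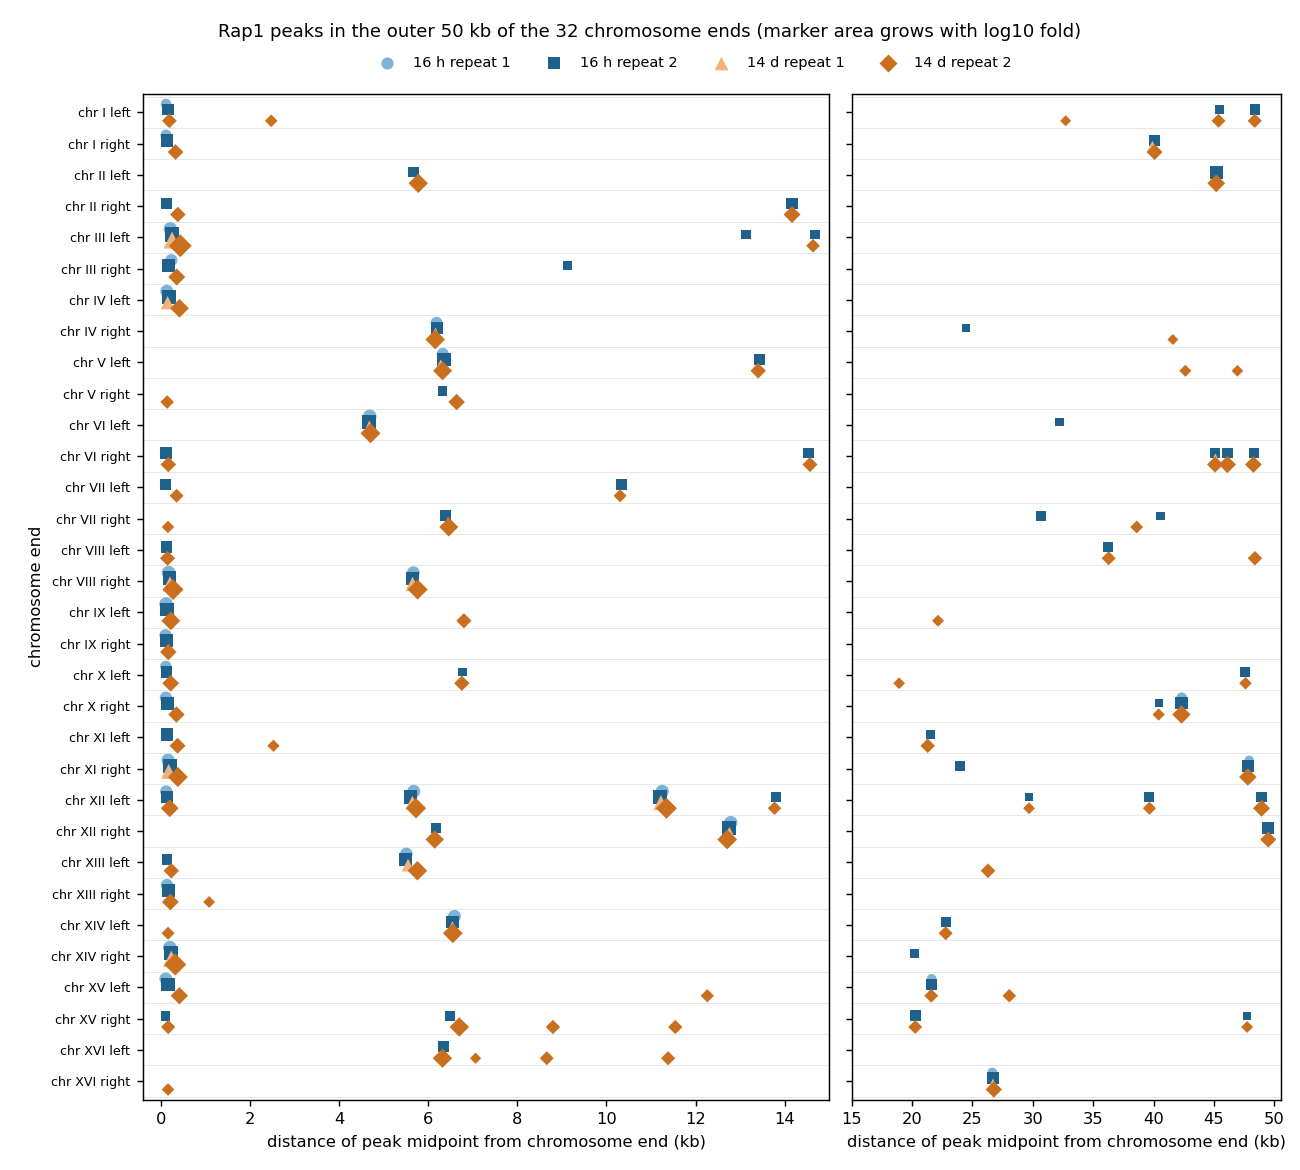
Position of every outer Rap1 peak by chromosome end (rows) and distance of the peak midpoint from the end in kb (x axis, 0 to 15 kb left and 15 to 50 kb right). Marker shape and colour give the library, and marker area grows with log10 fold enrichment. A reader should see a column of peaks within 1 kb of 26 ends, a second column between 4 and 7 kb at 15 ends, and scattered weaker peaks farther in.

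Distance from the end split the outer peaks into bands. In the terminal 1 kb, 15, 22, 5 and 26 ends had a peak, in the order of lists above. All 68 of these peaks had their summit beyond the last annotated gene of the arm, and 0 of the summits lay in coding sequence, against 14 of all 210 outer summits. The farthest midpoint in this band was 436.5 bp from the end, and the next peak inward lay at 1084 bp. Between 1 and 5 kb only 1, 1, 1 and 4 peaks were listed. From 5 to 10 kb there were 6, 14, 7 and 17 peaks, from 10 to 20 kb 2, 9, 2 and 12, and from 20 to 50 kb 4, 28, 3 and 31.

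Peak density followed the same bands. Per 100 kb of sequence, the terminal 1 kb held 46.9, 68.8, 15.6 and 81.3 peaks, the 5 to 10 kb window held 3.75, 8.75, 4.38 and 10.6, and the interior beyond 50 kb held 0.535, 3.88, 0.735 and 4.53. The 20 to 50 kb window, with 0.417, 2.92, 0.312 and 3.23 peaks per 100 kb, was below the interior in each of the 4 lists. Its peaks were also weak, with a median percentile of fold of 22.6, 34.0, 35.8 and 37.8. In the terminal 1 kb the medians were 83.3, 88.9, 95.8 and 61.1, and from 5 to 10 kb they were 85.1, 55.2, 83.2 and 94.3. Peaks of the terminal 1 kb ranked above the other outer peaks by −1.19, 44.2, 12.6 and 18.0 points, a mean of 18.4 ± 19.0 (SD, n = 4), which did not pass the exact sign-flip permutation test (p = 0.25).

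**Figure D2:**
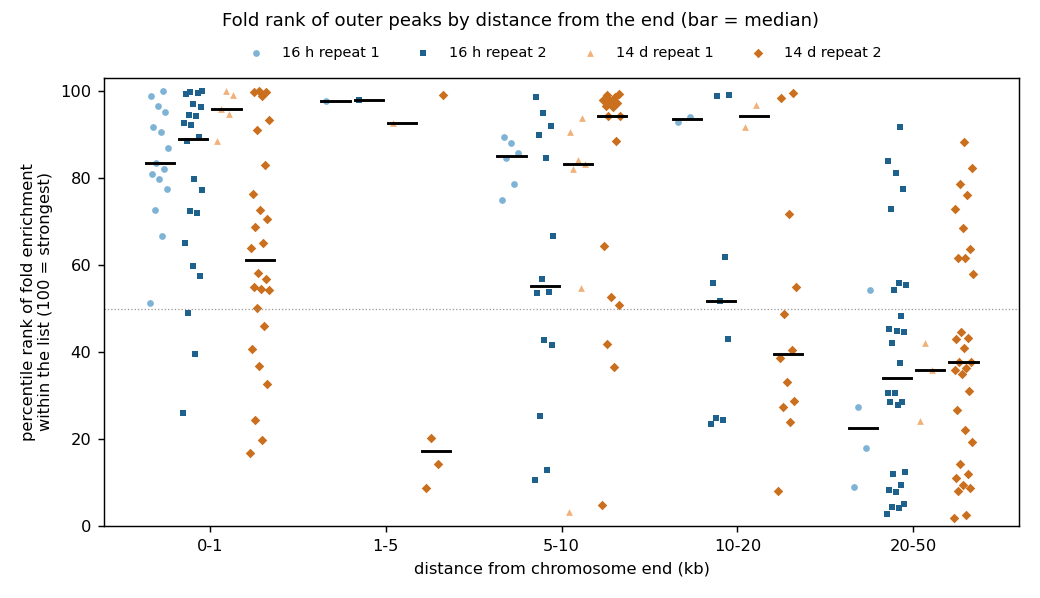
Percentile of fold enrichment within its list (y axis, 100 is the strongest peak) for each outer peak, by distance from the end in kb (x axis) and library (colour and shape), with the median as a black bar. The medians of the 20 to 50 kb window lie between 22.6 and 37.8, and in 14 d repeat 2 the median is 61.1 in the terminal 1 kb and 94.3 from 5 to 10 kb.

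Each of the 32 ends had a region in the terminal 1 kb, a region between 4 and 7 kb, or both. Over the 4 lists, 26 ends had a terminal region and 15 ends had a region at 4 to 7 kb. The terminal region stood alone at 17 ends, both occurred at 9 (VR, VIIR, VIIIR, IXL, XL, XIIL, XIIIL, XIVL and XVR, where L and R are the left and right ends), and 6 had only the region at 4 to 7 kb (IIL, IVR, VL, VIL, XIIR and XVIL). This grouping was made after the positions were seen, and no test was run on it. All 7 ends with a YRF1 gene were among the 15. On chromosome XII the left end carried 3 strong regions, at its tip and 5.53 and a further 5.62 kb inward. The right end carried 2 regions within 20 kb, which lay 6.56 kb apart. The outer one, between the tandem genes YRF1-4 and YRF1-5, was in the repeat 2 lists only, with fold 6.57 at 16 h and 29.5 at 14 d. These sequences are multi-copy, and how the authors placed reads that match several copies is not given in the sources used here, so regions at repeated elements of different ends are not independent observations.

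By the mean percentile of fold over the lists, the right end of chromosome XIV and the left end of chromosome III held the top terminal regions. At III left (positions 1 to 873, outside the pseudogene YCL075W), fold was 39.7 and 63.7 at 16 h and 495 and 252 at 14 d, in repeats 1 and 2. At XIV right (783688 to 784333, beyond YNR077C), it was 41.6 and 76.8 at 16 h and 344 and 173 at 14 d. In both regions the 2 values at 14 d lay above the 2 at 16 h. Pileup over genome background moved the other way in both repeats, by −2.07 and −1.24 (log2) at III left and by −2.22 and −1.25 at XIV right, and the local background of III left went from 85.6 and 10.03 times the genome background at 16 h to 1.1 and 1 times at 14 d. VIII right (562096 to 562643, beyond YHR219W) showed the same order, with 44.2 and 42.3 at 16 h and 107 and 96.7 at 14 d. So did XI right (666053 to 666816, beyond GEX2, a glutathione exchanger gene), with 31.5 and 54.2 against 111 and 60.9. IV left (1 to 837, before COS7, of a family of subtelomeric membrane protein genes) did not, with 31.4 and 64.9 at 16 h and 37.7 and 33.5 at 14 d. These 5 were the terminal regions listed in all 4 libraries. IX left (1 to 448, beyond YIL177C), whose mean percentile over its 3 lists was above that of IV left, had fold 38.9 and 34.3 at 16 h and 36.3 in 14 d repeat 2, and was not in the list of 14 d repeat 1.

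Farther in, 10 more outer regions were found in all 4 lists. At 4.71 kb, VI left (4260 to 5152, between YFL064C and COS4) was high at both times, with fold 41.0 and 45.0 at 16 h and 63.2 and 61.5 at 14 d. From 5 to 10 kb there were 6 such regions. At VIII right (556265 to 557496, between IMD2, an IMP dehydrogenase gene of guanine nucleotide synthesis, and YHR218W), fold was 25.0 and 28.5 at 16 h and 71.8 and 63.5 at 14 d. At XII left (5190 to 6263, overlapping YLL066W-B and YLL066C) it was 30.4 and 35.2 against 44.7 and 68.5. The groups did not overlap in any of these 3 regions.

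Of the other 4 at 5 to 10 kb, IV right (1525046 to 1526063, before YRF1-1) had a fold of 14.2 and 13.0 at 16 h and 26.7 and 51.0 at 14 d, without overlap. XIII left (5043 to 6475, between YML133C and COS3) gave 22.6 and 26.1 against 25.2 and 48.4, and XIV left (6087 to 7018, over the start of YRF1-6) gave 27.9 and 21.2 against 25.7 and 54.4, so that both overlapped. V left (6074 to 6574, between YEL075C and YEL073C) went the other way within each repeat, with 17.1 and 46.7 at 16 h and 12.2 and 38.2 at 14 d. The 2 regions from 10 to 20 kb were both on chromosome XII. The left one (10688 to 12005, between YLL066C and PAU18) had fold 33.1 and 50.6 at 16 h and 118 and 95.8 at 14 d, and the right one (1064718 to 1065660, before YLR462W) had 36.5 and 50.1 against 54.7 and 53.3.

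A single region beyond 20 kb was found in all 4 lists. It lay 26.8 kb from XVI right (920900 to 921567), between QCR2, a subunit of the mitochondrial cytochrome bc1 complex, and AQY1, an aquaporin. Its fold of 5.66 and 15.5 at 16 h and 7.21 and 12.9 at 14 d was the lowest of the 15 in 3 of the 4 lists, and the times overlapped. Thus 14 of the 15 regions found in every list lay within 20 kb of an end and 12 within 7 kb. In 10 of the 15 both 14 d values lay above both 16 h values, and in 0 below them. Over all 44 regions in every list, 31.8% had both 14 d values above, with 4 of the 29 inner regions. On the scale of pileup over genome background, 0 of the 15 and 4 of the 29 inner regions had both 14 d values above.

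Presence in every list was more frequent in outer regions than over all regions. It held for 15 of 98 outer regions (15.3%) and 29 of 516 inner regions (5.62%), with 7.17% over all 614. By distance it held for 5 of 26 regions in the terminal 1 kb, 1 of 4 at 1 to 5 kb, 6 of 18 at 5 to 10 kb, 2 of 13 at 10 to 20 kb and 1 of 37 at 20 to 50 kb. Between the deep repeat 2 lists, 66 of 98 outer regions were shared (67.3%), close to the 69.9% over all regions. Another 32 outer regions were in a single list, 24 of them in 14 d repeat 2 and 8 in 16 h repeat 2, all with fold between 2.20 and 8.28. No outer region was in both lists of one time and in neither list of the other. Such regions were as rare over all 614, with 0 in both 16 h lists only and 1 in both 14 d lists only.

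In the full lists, 16 h and 14 d differed by less than the spread between repeats. This held for the share of outer peaks, the number of occupied ends and the median rank of outer fold. At 16 h, 24.4 ± 12.7% (SD, n = 2) of the peaks were outer peaks, and at 14 d this share reached 17.5 ± 2.11% (SD, n = 2), a difference of −6.92 percentage points (two-sided exact permutation test, p = 1, where 2 against 2 cannot go below 0.33). It fell by 14.4 points in repeat 1 and rose by 0.541 in repeat 2. Ends with an outer peak numbered 22 and 32 at 16 h and 16 and 32 at 14 d (difference −3, exact permutation p = 1), and 14 ends had one in all 4 lists. The median percentile of fold of outer peaks differed by 1.71 points between times (exact permutation p = 1), 5.55 in repeat 1 and −2.12 in repeat 2. With each list cut to its 84 strongest peaks, these differences between times were −7.14 percentage points, −4 ends and 11.0 percentile points. Each then reached the smallest p of the design (exact permutation test, p = 0.33). Among the 5 windows of the full lists, the 20 to 50 kb window had both 14 d medians (35.8 and 37.8) above both 16 h medians (22.6 and 34.0). It rests on 4 and 3 peaks in the 16 h and 14 d lists of repeat 1. The 1 to 5 kb window went the other way, with 97.6 and 97.9 at 16 h and 92.6 and 17.2 at 14 d. It rests on 1 and 1 peaks at 16 h and 1 and 4 at 14 d. Each of these windows reached the smallest p of the design (exact permutation test, p = 0.33).

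At the 15 outer regions in all 4 lists, the median log2 fold had a mean of 5.23 ± 0.37 (SD, n = 2) in the 16 h libraries and of 5.85 ± 0.11 (SD, n = 2) in those of 14 d. Their difference, 0.62, had the same sign in both repeats (0.80 and 0.44) and reached the smallest p of the design (exact permutation test, p = 0.33). The 29 inner regions in all 4 lists gave a like difference of 0.64 (exact permutation p = 0.667). On the scale of summit pileup over the genome background, which adds nothing to either term, the difference at the outer regions had the opposite sign, −0.50 (log2), so no direction can be read from it. In repeat 1, fold was higher at 14 d in 13 of the 15 regions while pileup over genome background was lower in 15 of 15, with a median log2 change of −1.59, and in repeat 2 it was lower in 11 of 15. Over all 44 regions in every list, fold was higher in 37 and pileup lower in 32 in repeat 1. Among the 29 inner ones, pileup was lower in 17 in repeat 1 and in 14 in repeat 2. Depth moved with time in both repeats, and its part in these differences was not tested.

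In repeat 1, terminal peaks dropped from the list between 16 h and 14 d, while those at 5 to 20 kb were kept. Of 15 terminal regions in the 16 h list, 5 were also in the 14 d list, against 6 of 6 at 5 to 10 kb, 2 of 2 at 10 to 20 kb and 1 of 4 at 20 to 50 kb. Over all regions of that 16 h list the share kept was 52.4%, and it was 53.6% (15 of 28) over the outer ones. The 10 terminal regions not kept were at IL, IR, IIIR, IXL, IXR, XL, XR, XIIL, XIIIR and XVL. Their fold in 16 h repeat 1 was 7.07 to 38.9 (median 17.9), against 31.4 to 44.2 in the 5 that were kept.

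The 14 d list of repeat 1 was the deeper of the pair, and it listed peaks down to a pileup of 10 fragments, which is 5.86 times its genome background. In the 16 h library the 10 regions had summit pileups of 9 to 127 fragments, 21.7 to 307 times its own genome background. The ratios of the libraries are not on a like scale. Pileup over genome background was lower at 14 d in all 15 outer regions that both repeat 1 lists held. Whether the 10 regions lay below the detection limit at 14 d was not tested. All 10 were present in both lists of repeat 2, where 7 of them had a lower fold at 14 d (median log2 change of the 10, −0.98). No terminal region was gained in repeat 1. In repeat 2 none was lost and 4 were gained, at VR, VIIR, XIVL and XVIR, with fold 3.35 to 4.91. The number of ends with a terminal peak therefore changed by −10 in repeat 1 and by 4 in repeat 2 (exact permutation p = 1).

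**Figure D3:**
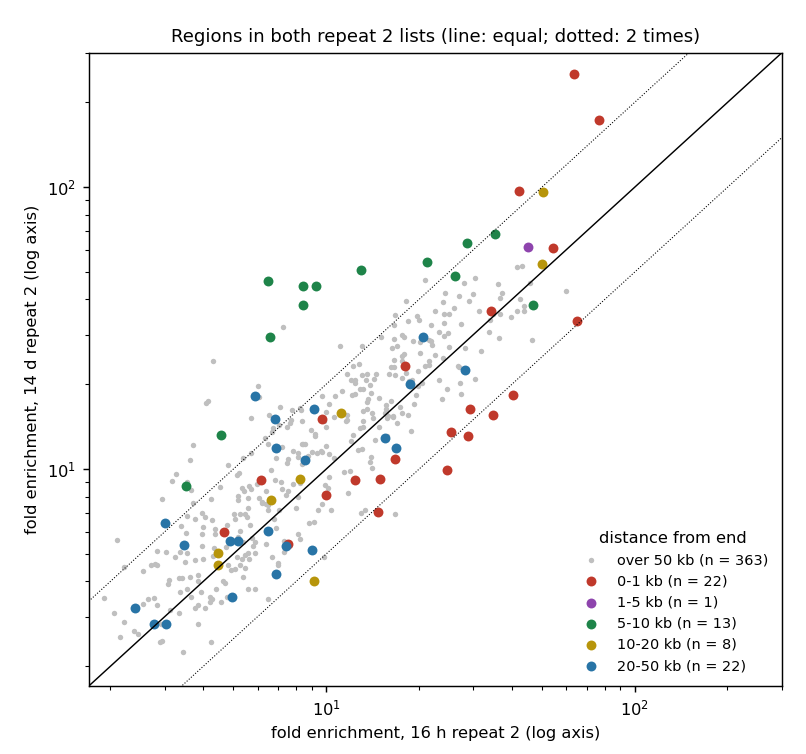
Fold enrichment at 14 d (y axis, log scale) against 16 h (x axis, log scale) for each region in both repeat 2 lists, coloured by distance from the end, with inner regions in grey. The solid line marks equal fold and the dotted lines 2-fold differences. Of the 13 regions at 5 to 10 kb, 12 lie above the solid line, and of the 22 regions in the terminal 1 kb 13 lie below it.

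Within repeat 2, the median change in fold was negative at the tip and positive at 5 to 10 kb. Of 22 terminal regions in both lists, 13 had a lower fold at 14 d and 9 a higher one, with a median log2 change of −0.45 and a range from −1.30 to 1.98. Over all 429 regions shared by these lists, 30.5% had a lower fold at 14 d. Fold was at least 2 times lower in 5 of the 22 terminal regions and at least 2 times higher in 3, where 1.86% and 11.7% of all shared regions passed these limits. On the scale of pileup over genome background, 21 of the 22 were lower, with a median of −0.81, against 42.2% of all shared regions. There is 1 library per time here, so these changes have no replicate check and no test.

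At 5 to 10 kb, 12 of 13 shared regions had a higher fold in 14 d repeat 2. In 10 of them it was at least 2 times higher, against 11.7% of all shared regions. Fold ran from 3.52 to 46.7 (median 9.26) at 16 h and from 8.69 to 68.5 (median 44.8) at 14 d, and the median log2 change was 1.54, a 2.90-fold rise. The exception was V left. On the scale of pileup over genome background, 11 of the 13 were higher, with a median of 1.06, against 248 of all 429 shared regions. The local background of these regions relative to the genome background moved too, from a median of 4.50 at 16 h to 2.25 at 14 d, and it was lower in 13 of 13, and its part in the change was not tested. The shared regions at 10 to 20 kb (7 higher and 1 lower, median 0.17) and at 20 to 50 kb (13 higher and 9 lower, median 0.11) stayed near the inner regions (256 higher and 107 lower, median 0.32).

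The median percentile of terminal peaks minus that of peaks at 5 to 10 kb was 33.7 points at 16 h and −33.2 at 14 d in repeat 2. That 14 d value includes the 4 terminal peaks gained in repeat 2. In repeat 1 the same difference was −1.79 and 12.6, but the 14 d value there rests on the 5 terminal peaks still listed. The kept shares above (5 of 15 at the tips, 6 of 6 at 5 to 10 kb) count listing and not strength. At the 5 terminal regions in both repeat 1 lists, fold was higher at 14 d in all 5, with a median log2 change of 1.81. Of the 6 regions at 5 to 10 kb in both repeat 1 lists, 4 had a higher fold at 14 d and 2 a lower one, with a median log2 change of 0.36. On the scale of pileup over genome background, the 5 terminal regions and these 6 were all lower at 14 d, with medians of −2.07 and −1.49. The rise of the 5 to 10 kb band on that scale was thus seen in repeat 2 only.

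Terminal regions with and without a neighbour at 4 to 7 kb differed in their change within repeat 2. At the 16 ends with a terminal region alone, 13 had a lower fold at 14 d and 3 a higher one (IIIL, XIR and XIVR), with a median log2 change of −0.77 (−1.30 to 1.98). At the 6 ends that also had a region at 4 to 7 kb, all 6 were higher, with a median of 0.47 (0.08 to 1.19). On the scale of pileup over genome background both sets were lower, 15 of 16 and 6 of 6, with medians of −1.05 and −0.36.

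A split by local background sorted largely the same ends into the same sets, so the 2 splits are not separate observations. All 6 ends that also had a region at 4 to 7 kb were among the 10 with more background. So were IIIL, XIR and XIVR. At 12 terminal regions the local background in 16 h repeat 2 was under 1.1 times the genome background, and all 12 had a lower fold at 14 d, with a median log2 change of −0.93 (−1.30 to −0.43). Their fold was 7.50 to 64.9 (median 25.0) at 16 h and 5.42 to 33.5 (median 12.0) at 14 d. Of these 12, 8 were listed in 16 h repeat 1 and 1, IV left, in 14 d repeat 1. Inner regions under the same limit were balanced, with 71 lower and 78 higher of 149. At the 10 terminal regions with more background, 9 were higher, with a median of 0.47. Fold has the local background in its denominator, so this split shares a term with what it compares. On the scale of pileup over genome background the medians were −0.97 at the 12 and −0.41 at the 10. Both splits were made after the values were seen and carry no test.

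**Figure D4:**
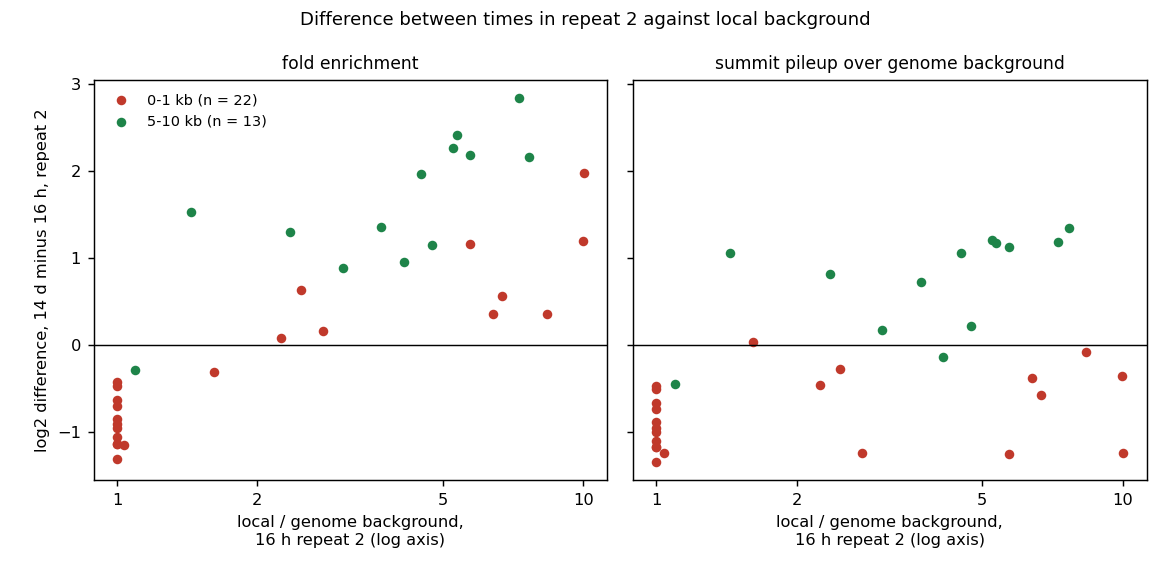
Log2 difference between 14 d and 16 h in repeat 2 (y axis) against local over genome background in 16 h repeat 2 (x axis, log scale), for fold enrichment (left) and for summit pileup over genome background (right). Points are the 22 terminal regions and the 13 regions at 5 to 10 kb. The terminal regions near a background ratio of 1 lie below 0 in both panels, and 9 of those with more background lie above 0 for fold while 1 of all 22 lies above 0 for pileup.

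The largest rank changes in repeat 2 were in these same bands. The 3 regions that rose most were XV right before YRF1-8 (1083996 to 1085191), from fold 6.48 and percentile 41.7 to 46.4 and 97.2, XII right between YRF1-4 and YRF1-5 (1071322 to 1072184), from 6.57 and 42.7 to 29.5 and 88.5, and II left between YBL111C and PAU9 (5376 to 6179), from 8.41 and 53.5 to 44.8 and 96.5. The regions that fell most included 2 tips. I right (229562 to 230218) went from fold 24.6 and percentile 88.4 to 9.97 and 56.7, and X right (745052 to 745751) from 28.8 and 92.1 to 13.1 and 63.9. The other was at 10.3 kb on VII left (10173 to 10496, before VEL1), from 9.12 and 55.8 to 4.01 and 23.8.

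YRF1 genes lay beside the 4 to 7 kb band. In repeat 2 lists, 7 of 8 YRF1 genes had a summit 324 to 947 bp before the start codon, and fold there ran from 4.57 to 21.2 at 16 h and from 13.3 to 54.4 at 14 d. A terminal peak was listed at 0, 1, 0 and 4 of the 7 YRF1 ends and at 15, 21, 5 and 22 of the other 25, in 16 h repeat 1, 16 h repeat 2, 14 d repeat 1 and 14 d repeat 2.

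Of the 714 annotated genes in the outer 50 kb, 146 had a peak within 1 kb in any list, which is 20.4%. All 8 ribosomal protein genes of these windows did (RPL32, RPL2A, RPL29, RPL8A, RPS4A, RPL40B, RPL8B and RPL6B). Each was in both repeat 2 lists, while repeat 1 had 2 of them (RPS4A and RPL40B) at 16 h and 0 at 14 d. The 5 regions from 20 to 50 kb with the best mean percentile all lay beside one of them. The region between ROX3, a Mediator subunit gene, and RPL32 (II left, 44938 to 45429) had fold 28.2 at 16 h and 22.5 at 14 d, and the one beside RPS4A (X right, 703182 to 703716) had 20.7 and 29.4, with 7.64 in 16 h repeat 1.

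Among the families typical of chromosome ends, members near a peak came mainly from 14 d repeat 2. PAU genes, the seripauperins, which encode cell wall mannoproteins, had a peak within 1 kb at 8 of 19 (42.1%, against 20.4% of all outer genes), 2 of them in 16 h repeat 2, 7 in 14 d repeat 2 and 0 in either repeat 1 list. For 7 of the 8 (PAU3, PAU8, PAU16, PAU18, PAU20, PAU21 and PAU22) a peak lay on the side of the start codon, 12 to 218 bp from the gene. These peaks were weak, with fold 3.22 to 6.22 at the 6 listed in 14 d repeat 2, 3.34 at PAU3 in 16 h repeat 2, and 4.47 at PAU18 in that list. The copies share sequence, so reads may be shared between them.

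The enolase-related genes ERR1 and ERR2 and the chaperone-family genes HSP33 and HSP32 form copies of a block at XV right and XVI left, and both copies carried the same pair of peaks in 14 d repeat 2 only. Fold was 6.22 and 5.40 between the ERR and PAU genes (XV, 1082280 to 1082705, and XVI, 8459 to 8862) and 5.99 and 5.67 between the HSP and ERR genes (XV, 1079516 to 1079978, and XVI, 11157 to 11612). These are near-identical sequences and count as uncertain. The COS family had 3 of 11 members near a peak (27.3%), the HXT hexose transporter genes 3 of 9 (33.3%), the IMA isomaltase genes 2 of 5 (40%) and the AAD genes 2 of 6 (33.3%), beside 20.4% of all outer genes and on counts of 2 or 3. The MAL maltose genes (0 of 6), the genes named SNO or SNZ (0 of 5) and the THI thiamine genes (0 of 4) had none. The SNO and SNZ set was taken by name and includes SNO4, which was also counted with the HSP32 chaperone family.

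The silent mating cassette HML, on the left arm of chromosome III, held weak peaks only. The region between HMLALPHA2 and HMLALPHA1 (13029 to 13234) was listed in 16 h repeat 2 alone, with fold 4.36, and the region beyond HMLALPHA1 (14408 to 14865) had fold 4.46 and 5.03 in the repeat 2 lists.

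Other outer regions shared by the repeat 2 lists lay beside genes of metabolism and transport. Beside PHO89, a phosphate transporter gene (II right, 798776 to 799264), fold was 11.2 at 16 h and 15.9 at 14 d. Between ACS1, an acetyl-CoA synthetase gene, and FLC2 (I left, 45111 to 45631), it was 3.47 and 5.39. Beside HXK1, a hexokinase gene (VI right, 255380 to 255809), it was 6.63 and 7.79, and before JEN1, a lactate and pyruvate transporter gene (XI left, 20643 to 21957), 3.02 and 6.44. Before RMD6 (V left, 13206 to 13605) it was 8.21 and 9.27. The number of regions per end ran from 1, at IV left and IX right, to 7, at XII left. Just inside the 50 kb limit lay the regions beside RPL6B at 49.5 kb, with fold 16.9 and 11.9 in the 16 h and 14 d lists of repeat 2, and RPL8B at 48.9 kb, with 9.12 and 16.4 in the same lists. Just outside lay a region on III left at 50.7 to 50.8 kb, with fold 7.27 in 16 h repeat 2, 31.8 in 14 d repeat 2 and 11.1 in 14 d repeat 1.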

How the data were processed

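Per the labels and the study's methods, the authors trimmed paired-end reads with Trim Galore, mapped them to R64 with Bowtie2 and called narrow peaks with MACS2 against matched inputs, with 1 list per library. Versions and the treatment of multi-mapping reads are not given in the sources used here. The deposited lists hold, for each peak, a fold enrichment (a ratio), a −log10 p-value, a −log10 q-value and a score (the −log10 q multiplied by 10 and cut to a whole number).

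From these, a whole-number summit pileup and the local background were solved for each peak (Poisson tail, relative tolerance 0.0001), with a solution for 100% of peaks. The solution assumes an unscaled ChIP pileup. The lowest background of a list is its genome background. Total reads were not used. Chromosome ends were set to the furthest annotated gene or peak (14 of 32 ends by a peak), and genes came from the RefSeq table of R64. The 17 mitochondrial peaks were left out. Times were compared with exact permutation tests and outer with inner peaks with exact sign-flip tests (Python 3.11.15, scipy 1.17.1), which were tested on simulated data. The tests and lists were chosen with earlier results of these data known. Regions were named by a rule: all outer regions in the 4 lists, the best ranked of each distance window, the 3 largest rank rises and falls in repeat 2, the regions nearest the 50 kb limit, ends with most and fewest regions, and HML. Some further regions shared by repeat 2, the PAU and ERR regions and the 4 to 7 kb band were chosen after their values were seen. A planned search for the Rap1 motif was not run, since no genome sequence was used here.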

Additional observations from a re-analysis of the deposited data

How the results depend on the processing

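With 2 libraries per time, and repeat 2 far deeper than repeat 1, summary differences between times rest on single libraries. Leaving out 1 library at a time, the outer share differed by −15.9 to 2.04 percentage points (2.04 without 16 h repeat 1), the number of ends with an outer peak by −11 to 5 (2 without 16 h repeat 2, 5 without 14 d repeat 1), and the percentile of outer fold by −16.3 to 19.7 points (−12.5 without 16 h repeat 2, −16.3 without 14 d repeat 1). That percentile difference was also −4.34 and −0.577 with windows of 20 and 30 kb and −4.23 when ranked by −log10 q. The log2 fold at regions in all 4 lists differed by 0.36 to 0.88 with 1 library left out and by −0.50 as pileup over genome background. Leaving out 1 library, outer peaks still ranked above inner ones by 18.2 to 31.9 points, terminal above other outer peaks by 9.83 to 25.0 points, the width difference was 13.8 to 48.0 bp, and the coding difference −9.31 to −5.83 points.

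Genes with a peak numbered 82 when only the 500 bp before the start codon counted, in place of 146 within 1 kb. Terminal regions lower in 14 d repeat 2 numbered 21 by pileup over genome background, in place of 13 by fold, a scale added once the data had been seen. With the repeat number as a block, the 4 differences between times were unchanged by construction (−6.92, −3, 1.71 and 0.62), and the smallest p was then 0.5. At the 15 regions in all 4 lists, the deviations of same-numbered libraries correlated with r = −0.067 over 2 pairs, too few to establish a pairing, while depth and list size did go with the repeat number. Where they were run, a limit of 5 on −log10 q, lists cut to their 84 strongest peaks and other overlap rules left the direction of each difference as it was.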
